A study of Rattus norvegicus with 12 samples.

Results

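The genes described here encode 10 cathepsins, the main family of lysosomal proteases: Ctsa, Ctsb, Ctsc, Ctsd, Ctsf, Ctsh, Ctsk, Ctsl, Ctss and Ctsz. They were taken by gene symbol from the 2 deposited tables of gene expression and are 10 of the 20400 genes in either table, and all 10 were in both. The RNA-seq study measured cultured wild-type rat cells that originated in bone marrow, in 4 groups of 3 libraries each. The BMSC-C group consisted of untreated bone marrow mesenchymal stem cells (BMSCs). The BMSC-CT group was given CTGF (connective tissue growth factor) over 1 week with TGF-β1 afterwards, which the study used to make the cells fibrotic. The BF-C and BF-D groups were fibrotic BMSCs by their sample labels, without treatment and with the microtubule stabilizer docetaxel. The design text names docetaxel for induced fibrotic chondrocytes, which were therefore taken to be the BF cells. All groups shared a chondrogenic medium. The labels do not give the docetaxel dose or time, how the BF cells were made, the strain or age of the rats, or whether the libraries of a group came from separate cultures, so that the p-values measure the spread between these libraries, which may be technical.

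Cathepsins are made as inactive precursors, carried to the lysosome mostly by mannose 6-phosphate receptors, and cut to their active form at acid pH. They break down proteins delivered by endocytosis and autophagy, and some are secreted and cut collagen and other matrix proteins. Most are cysteine proteases (Ctsb, Ctsc, Ctsf, Ctsh, Ctsk, Ctsl, Ctss and Ctsz), while Ctsd is an aspartic protease and Ctsa a serine carboxypeptidase. Macrophages are rich in several of them, Ctss is typical of antigen-presenting cells, and Ctsk is known as the collagenase of osteoclasts.

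The libraries held 15580310 to 19870047 reads each, which were recovered from the deposited normalized counts. BMSC-CT replicate 3 stood apart: 14621 genes had reads in it, and 16100 to 17265 in the others of the BMSC table. Ribosomal protein transcripts made up 15.4% of its reads and 4.12 to 6.61% of theirs. Through the authors' scaling, 1 read in this library was worth 1.61 normalized counts, against 0.813 to 1.06 in the other BMSC libraries. A normalized count is thus the number of reads times this worth. BF-D replicate 2 also stood apart, with 2.86% ribosomal reads against 1.69 to 1.83% in the other BF libraries. In both libraries the deviation of a gene from the other replicates fell with gene length. The Spearman correlation was -0.404 in BMSC-CT replicate 3, against 0.381 and 0.325 in its mates. In BF-D replicate 2 it was -0.356, against 0.271 and 0.263. Each deviation is from the mean of the other libraries of the group, so the values of the mates partly mirror that of the library standing apart. Sums over marker genes are given as RPM (reads per 1000000 reads of the library). Levels between genes are given as RPKM (RPM per kilobase of the deposited gene length), and levels across the BMSC and BF groups as either. Within a comparison, single genes are given in normalized counts, the scale tested, with RPM or RPKM for some. The normalized counts of BMSC-CT replicate 3 carry its scaling. The label of the BMSC groups was checked against markers: 10 mesenchymal stromal markers summed to 2914 to 3411 RPM in BMSC-C, and 17 macrophage markers to 8937 to 10699.8. Both sets were thus present in the BMSC libraries, whereas in BF-C the sums were 7953 to 8109 for the 10 mesenchymal markers and 42.2 to 44.1 for the 13 macrophage markers in that table. Of cartilage markers, 9 summed to 489 to 516 RPM in BF-C and 8 to 34.4 to 56.9 in BMSC-C. In these bulk samples, fewer cells of a type and less RNA per cell cannot be told apart.

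Cathepsin transcripts were abundant in the BMSC groups and higher in BMSC-CT. The 10 genes together took 1.06, 1.12 and 1.33% of the reads of the BMSC-C libraries and 2.12, 2.43 and 2.43% of those of BMSC-CT. They took 0.503, 0.502 and 0.498% in BF-C and 0.521, 0.620 and 0.511% in BF-D. The BMSC-CT libraries all lay above the BMSC-C libraries, and the libraries with the lowest shares were those of BF-C.

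**Figure D1:**
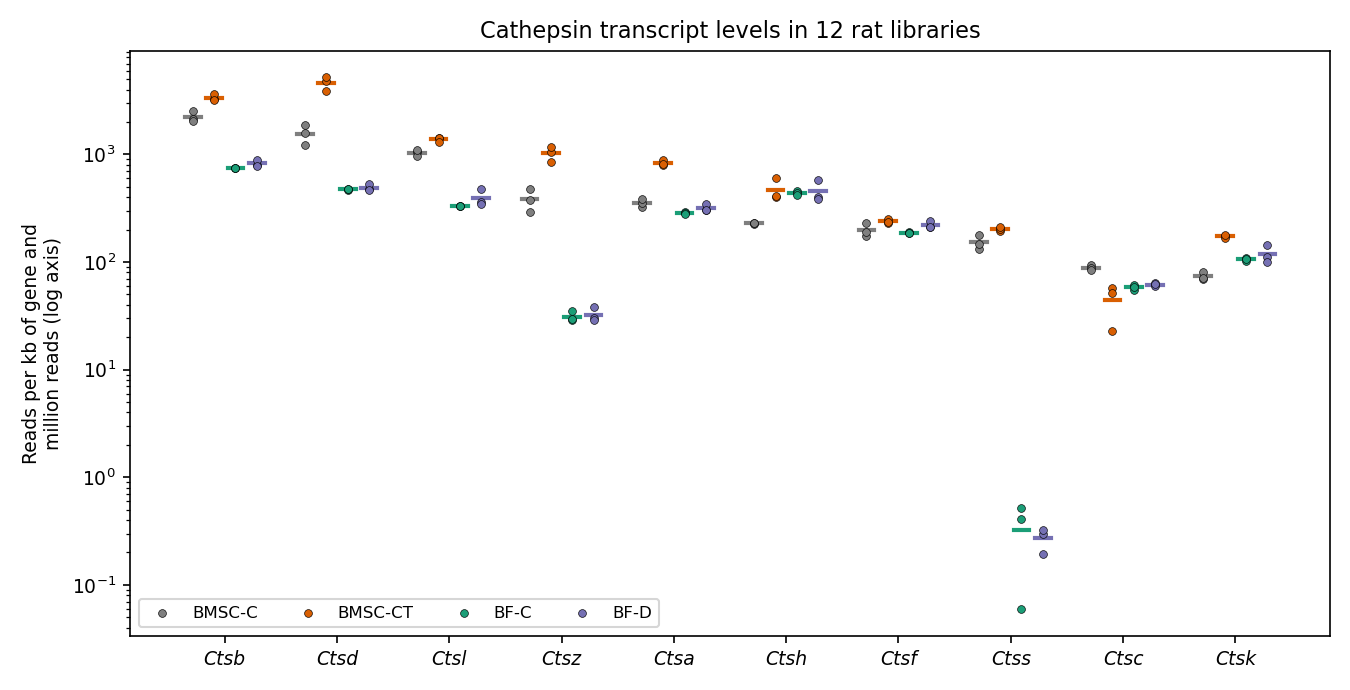
Level of each cathepsin (RPKM, log axis) in the 12 libraries, with points for libraries and a bar for the mean of each group. Ctsb, Ctsd and Ctsl lead in BMSC-C, and Ctss drops from 152 in BMSC-C to 0.326 in BF-C.

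The order of the genes by level in RPKM differed between the cell types. In BMSC-C, Ctsb led at 2237 ± 254 RPKM (SD, n = 3), followed by Ctsd at 1562 ± 319 and Ctsl at 1039 ± 73.6, with no overlap between these neighbours. Below them, the library ranges of Ctsz and Ctsa overlapped, as did those of the neighbours Ctsh and Ctsf and of Ctsf and Ctss, and Ctsc and Ctsk came last. In BMSC-CT, Ctsd was first at 4631 ± 682, above Ctsb at 3375 ± 229, and Ctsc took the last place. In BF-C, Ctsb led at 744.0 ± 1.71 and Ctsd followed at 472.8 ± 8.35, but Ctsh came next and Ctsz and Ctss stood last. No neighbours in the BF-C order overlapped, while in BF-D, with the same order, Ctsd, Ctsh and Ctsl overlapped.

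Promoter sequence was looked up for the cathepsins, since most of them were higher in the same group and the MiT family of transcription factors (Tfeb, Tfe3, Mitf and Tfec) is known to act on lysosomal genes through CACGTG and related elements. RefSeq promoters of the rat assembly GRCr8, from 250 bases before to 50 bases after each gene start, were found for 9 of the 10 genes, all but Ctsb. The E-box CACGTG was searched on both strands and lay in the windows of Ctsd and Ctsf, and in 6.42% of all 33469 promoters. Its extended form TCACGTGA, which contains the E-box and so overlaps it, lay in the Ctsd promoter and in 0.777% of all promoters. The stretches around the E-boxes are shown in the gene's own direction because Ctsd had the largest difference of the family between BMSC-CT and BMSC-C with the authors' scaling, described below, whereas Ctsf, which shares the motif, was not called in that fit. Capitals mark the motif. The Ctsd motifs begin 157 and 10 bases before the start (minus strand, chr1:206968943-206969008 and chr1:206968822-206968861), the one at 10 bases being the TCACGTGA match, and the Ctsf motif begins 149 bases before it (plus strand, chr1:211581990-211582055).
Ctsd, distal E-box: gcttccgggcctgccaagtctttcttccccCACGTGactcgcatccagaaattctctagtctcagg
Ctsd, proximal E-box: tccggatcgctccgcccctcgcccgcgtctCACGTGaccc
Ctsf, E-box: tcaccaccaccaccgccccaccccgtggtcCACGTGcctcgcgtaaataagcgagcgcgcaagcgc

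The M-box TCATGTG, the element to which Mitf binds in pigment cell and osteoclast genes, was matched in the windows of Ctsk and Ctss and in 3.56% of all promoters, with both strands searched. The Ctss match lay past the gene start. The letters GAGGAAGT, a site of the myeloid factor PU.1, were matched in Ctsc and Ctss and in 2.42% of all promoters. The AP-1 letters TGANTCA were in 7.33% of all promoters and in 0 of the 9 cathepsin windows. The stretches of Ctsk and Ctss are shown because these are the genes tied to osteoclasts and to antigen-presenting cells. Both motifs lie on the opposite strand, so that the capitals hold their reverse complements, and they begin 151 bases (Ctsk, plus strand, chr2:185747367-185747433) and 17 bases (Ctss, plus strand, chr2:185775349-185775395) before the start. These matches describe letters in the windows and are not evidence of binding.
Ctsk, M-box: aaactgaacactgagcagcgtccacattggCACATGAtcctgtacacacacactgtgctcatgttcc
Ctss, PU.1 letters: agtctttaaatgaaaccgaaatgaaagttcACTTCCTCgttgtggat

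The first comparison asked how CTGF followed by TGF-β1 changed the transcripts of BMSCs. Of the 10 cathepsins, 5 rose (Ctsd, Ctsz, Ctsa, Ctsk and Ctsh), 0 fell and 5 were not called by limma on log2(normalized count + 1), with p-values adjusted over the 16818 genes tested. Of all those genes, 18.6% were called, 7.70% higher and 10.9% lower. The median difference of the cathepsins was 1.23 on the log2 scale, and that of all genes was -0.15. In normalized counts, every BMSC-CT library lay above every BMSC-C library for 9 of the 10, as it did for 23.3% of all genes, and for Ctsc every one lay below, as for 28.9%. In RPM, 8 lay above, Ctsc below, and Ctsf overlapped, with 15.3% of all genes above and 36.9% below.

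**Figure D2:**
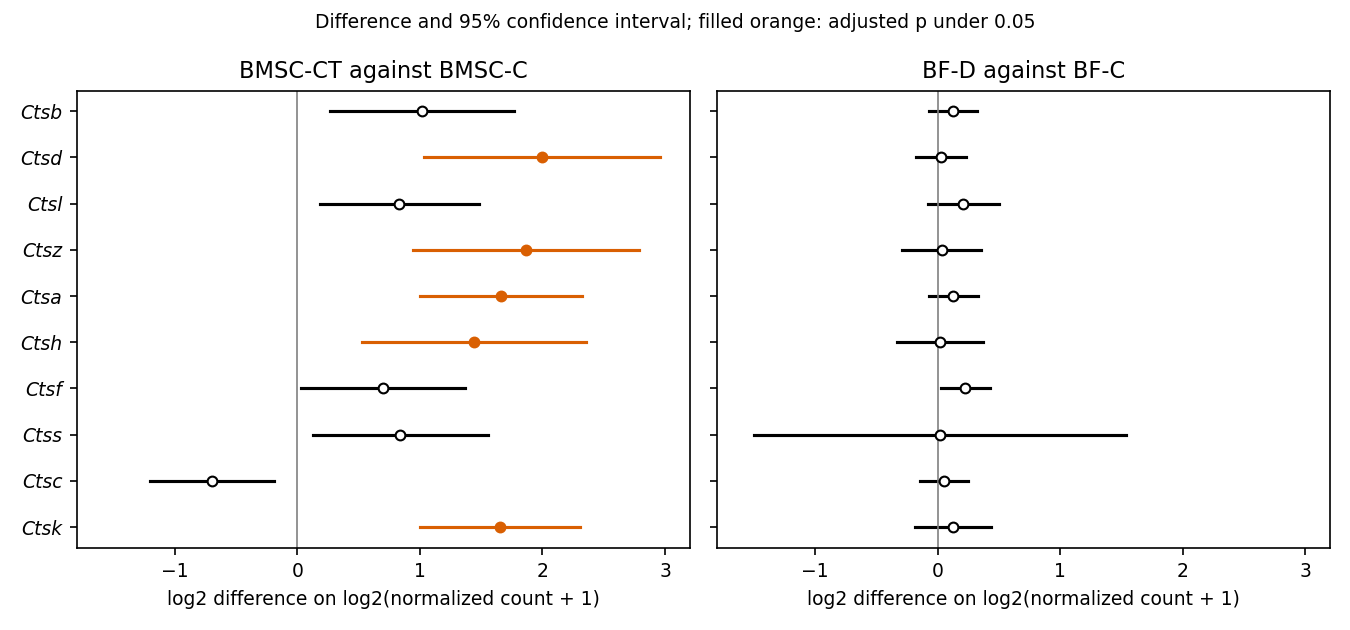
Difference of each cathepsin on log2(normalized count + 1) with its 95% confidence interval, for BMSC-CT against BMSC-C on the left and BF-D against BF-C on the right, where filled points passed an adjusted p of 0.05. The 5 filled points on the left run from 1.44 (Ctsh) to 2.0 (Ctsd), and none is filled on the right.

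Ctsd, the aspartic protease that begins much of the lysosome's protein breakdown and also cuts other precursors, had the largest fold of the family with the authors' scaling. Under quantile normalization its log2 difference of 1.26 was below the 1.33 of Ctsk and the 1.27 of Ctsz. Its normalized counts were 36404, 46025 and 57679.7 in BMSC-C and 125506, 167810 and 293235 in BMSC-CT. All 3 treated libraries were far above all controls, with replicate 3 the highest. Ctsd rose 4.0-fold (log2 difference 2.0, SE 0.40, limma adjusted p = 0.0206). In RPM the ratio of the means was 2.96, and the BMSC-CT levels in RPKM, 3879.5, 4804 and 5209.8, left replicate 3 closer to its mates. The part of the 2 E-boxes of Ctsd in this rise was not tested. The windows of Ctsz, Ctsa, Ctsk and Ctsh, which also rose, held no exact CACGTG. The part of any motif in their rises was not tested either.

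Of the cysteine endopeptidases, Ctsk, the enzyme that cuts the collagen triple helix, rose. It had 1437, 1658 and 1549 normalized counts in BMSC-C and 3972, 4076 and 7097 in BMSC-CT. The groups did not overlap, and replicate 3 was again the highest of the treated libraries. Ctsk rose 3.14-fold (log2 difference 1.65, SE 0.27, limma adjusted p = 0.0109). In RPKM its BMSC-CT levels were 175, 167 and 180.0, so that on this scale the 3 libraries were close, and all lay above the 69.6, 81.2 and 71.8 of BMSC-C.

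Ctsb, an abundant endopeptidase that also removes dipeptides from the carboxyl end, was not called. Its normalized counts were 60623.5, 57231 and 74706 in BMSC-C and 102422, 121896 and 172726 in BMSC-CT, and the groups did not overlap. The log2 difference was 1.02 (limma adjusted p = 0.0657). Ctsl, which also processes antigens and the invariant chain in some cells, was not called either. It had 25171, 22756 and 27686 normalized counts against 37039, 40396 and 59620.1, without overlap, at a log2 difference of 0.83 (limma adjusted p = 0.0753). Under quantile normalization the log2 differences of both genes were smaller, at 0.31 for Ctsb and 0.17 for Ctsl.

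Ctss, which cuts the invariant chain of MHC class II and stays active at neutral pH, had 1888, 2118 and 2668 normalized counts in BMSC-C and 3062, 3435 and 5826 in BMSC-CT. The treated libraries were all higher, but the difference of 0.84 on the log2 scale was not called (limma adjusted p = 0.0915). Ctsf, a less studied cysteine protease of the lysosome, had 4706, 5161 and 6539 against 6866, 8133 and 12173. Its groups were apart by a narrow margin in normalized counts and overlapped in RPKM (173 to 230.4 in BMSC-C, 230.3 to 253 in BMSC-CT), and its log2 difference of 0.70 was not called (limma adjusted p = 0.117).

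Of the cysteine exopeptidases, Ctsz and Ctsh rose. Ctsz, a carboxypeptidase that binds integrins when secreted, had 5734, 7449.8 and 9891 normalized counts in BMSC-C and 18524, 24722 and 44589 in BMSC-CT. The groups did not overlap, and Ctsz rose 3.64-fold (log2 difference 1.86, SE 0.39, limma adjusted p = 0.0226). Ctsh, an aminopeptidase, had 5783, 5796 and 6169.9 against 11311, 12512 and 29249. Replicate 3 stood above the other treated libraries on both scales, at 599 RPKM against 403 and 413. Ctsh rose 2.71-fold (log2 difference 1.44, SE 0.38, limma adjusted p = 0.0452).

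Ctsc, the dipeptidyl peptidase that activates serine proteases of neutrophils, mast cells and cytotoxic lymphocytes, was the one cathepsin with lower values. It had 2565, 2388 and 2418 normalized counts in BMSC-C and 1719, 1680.0 and 1195 in BMSC-CT. All treated libraries were below all controls, with replicate 3 the lowest. The log2 difference of -0.70 (95% confidence interval -1.21 to -0.19) was not called (limma adjusted p = 0.0626). Without BMSC-CT replicate 3 it was called lower (limma adjusted p = 0.0101), in a fit that called 22.1% of all genes lower.

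Ctsa, the serine carboxypeptidase that protects β-galactosidase and neuraminidase in a complex, rose. It had 10753, 11526 and 13189 normalized counts in BMSC-C and 29192, 34898 and 50956 in BMSC-CT, with no overlap. The rise was 3.17-fold (log2 difference 1.66, SE 0.27, limma adjusted p = 0.0111). In RPKM the 3 treated libraries were at 805, 891 and 808, and the controls at 326, 353 and 382.

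The calls of the 5 genes that rose depended on single libraries. Without BMSC-CT replicate 3, limma called 9 cathepsins (8 higher and Ctsc lower), in a fit that called 40.4% of all genes. Ctsf was then the gene not called (limma adjusted p = 0.0835). Without BMSC-C replicate 1 or 2, limma called 0 cathepsins, beside 4.85 and 4.42% of all genes. Without BMSC-C replicate 3 it called Ctsa alone (limma adjusted p = 0.0479), beside 7.51%, and without BMSC-CT replicate 2 it called Ctsa and Ctsk, beside 7.26%. All 10 members had an unadjusted limma p under 0.05 with all libraries in, as did 38.6% of all genes. DESeq2 on the recovered reads called 9 (8 higher, 1 lower) beside 32.9% of all genes, and edgeR called 5 beside 17.6%. Limma with quality weights for each library called all 10 (9 higher, 1 lower), beside 54.8% of all genes. The authors' deposited table gave 8 of the 10 as higher and 1 as lower at an adjusted p under 0.05, all but Ctsf, whose adjusted p there was 0.0805. Its log2 differences nearly equalled those of DESeq2 on the recovered reads (Ctsa 1.70 and Ctsd 2.07 in both). It rests on the same reads and is not a separate result.

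**Figure D3:**
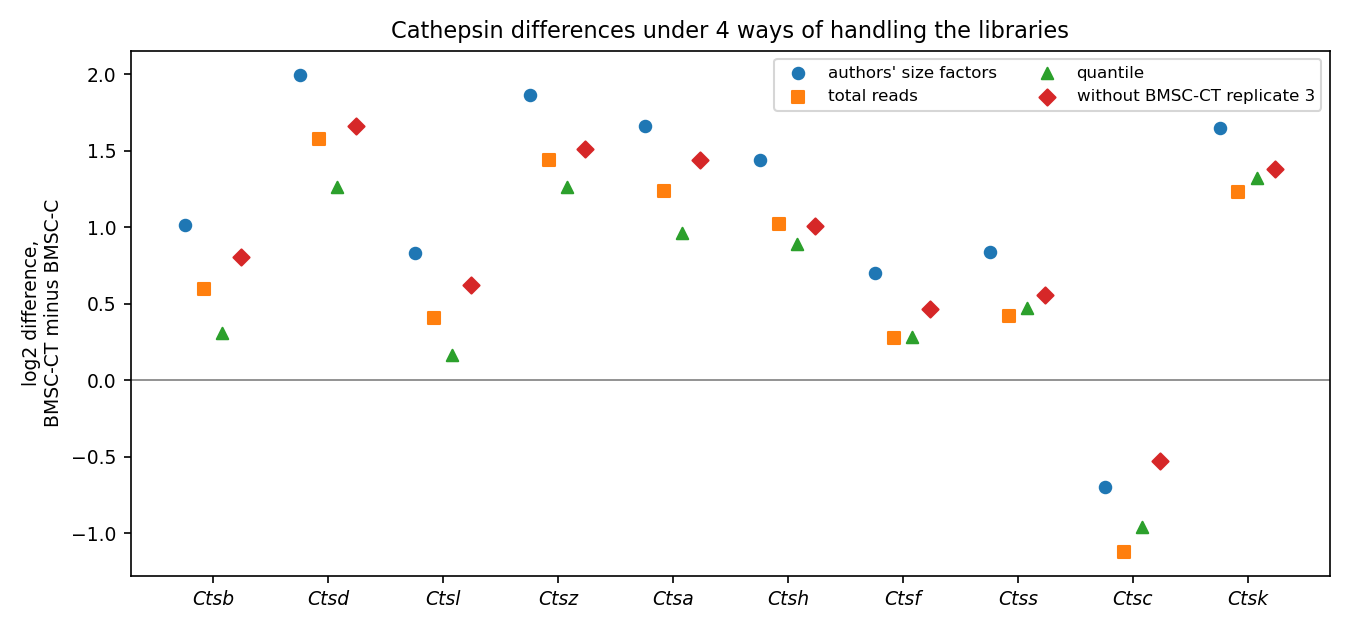
Difference of each cathepsin between BMSC-CT and BMSC-C (log2) with the authors' size factors, with scaling to total reads, with quantile normalization, and without BMSC-CT replicate 3. The sign of each gene stayed the same under these 4 settings, and under quantile normalization Ctsl, Ctsf and Ctsb lay nearest to 0 (0.17, 0.29 and 0.31).

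The way libraries were scaled shifted all genes, as the plot of differences by scaling shows. Scaling to total reads moved the median difference of all genes to -0.53, and quantile normalization moved it to 0.08. Among the called genes, the share higher was 41.3% with the authors' factors, 28.6% with total reads and 51.8% with quantile normalization. With total reads, limma called 5 cathepsins beside 16.4% of all genes, and the log2 differences were 1.58 for Ctsd, 1.44 for Ctsz, 1.24 for Ctsa, 1.23 for Ctsk and 1.02 for Ctsh. All of these lay well above the shifted median. Ctsf and Ctsl were then at 0.28 and 0.41, and Ctsc at -1.12.

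The makeup of the cathepsin reads differed between the groups. Ctsd made up 26.8% of the cathepsin reads in BMSC-C (23.5 to 28.5%) and 40.1% in BMSC-CT (37.0 to 43.3%). The share of Ctsb was 37.1% in BMSC-C (35.3 to 39.1%) and 28.2% in BMSC-CT (25.5 to 30.2%), and that of Ctsl was 14.6% and 9.78%. None of these shares depends on how a library was scaled, and the ranges of the groups did not overlap for Ctsd, Ctsb or Ctsl. Per length, the ratio of Ctsd to Ctsb was 0.577, 0.772 and 0.742 in BMSC-C and 1.18, 1.32 and 1.63 in BMSC-CT, so that Ctsd was below Ctsb in all controls and above it in all treated libraries. With 3 libraries against 3, an exact permutation test of this ratio cannot go below a two-sided p of 0.1, and none was run.

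**Figure D4:**
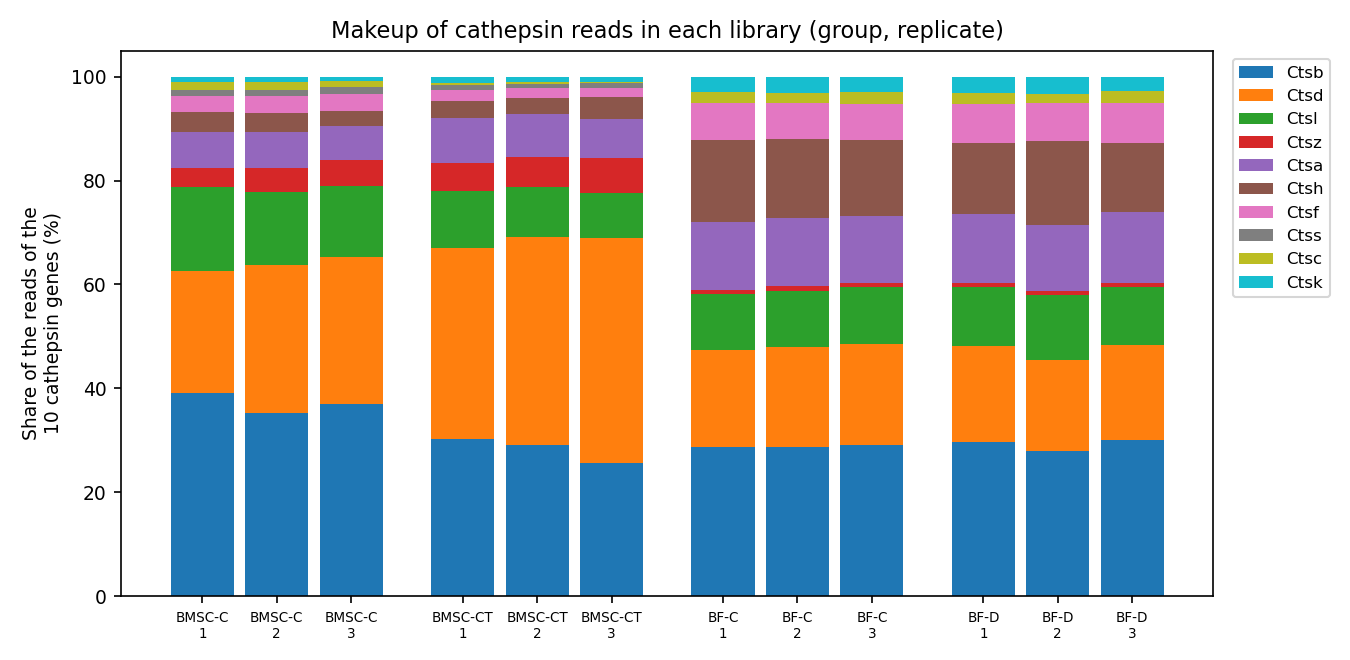
Share of each cathepsin in the summed reads of the 10 genes (%) in each of the 12 libraries, as bars stacked to 100%. Ctsd takes 37.0 to 43.3% in BMSC-CT against 23.5 to 28.5% in BMSC-C, and Ctsh takes 15.2% on average in BF-C against 3.45% in BMSC-C.

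Genes that work with the cathepsins were examined as lists, which were chosen with earlier results of these data known. Of all genes, 7.70% were called higher and 10.9% lower in this comparison, and 40.4% were called without BMSC-CT replicate 3. These shares stand beside the counts of this and the following lists. Of 15 partners and processing factors, 6 rose and 0 fell. The counts were 12 and 0 when BMSC-CT replicate 3 was left out. The list's median was 0.97 on the log2 scale. Lamp1, an abundant protein of the lysosomal membrane, rose from 17027 ± 306 to 40961.5 ± 3620 normalized counts (SD, n = 3; log2 difference 1.26, limma adjusted p = 0.0108). Neu1, the neuraminidase that Ctsa protects, rose by 1.41 (limma adjusted p = 0.0142), and Glb1, the β-galactosidase of the same complex, by 0.97 (limma adjusted p = 0.0292). Nagpa, which uncovers the mannose 6-phosphate signal, rose by 1.91 (limma adjusted p = 0.0175), Tpp1, another lysosomal peptidase, by 1.00 (limma adjusted p = 0.0188), and Lgmn, the legumain that cuts several cathepsins to their mature form, by 1.16 (limma adjusted p = 0.0469). Glb1 and Lgmn lay outside the naming rule and were named after their values were seen.

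Of 9 MiT factors and regulators of the lysosome, 5 rose and 2 fell, with a median of 0.96. The counts were 6 and 3 when BMSC-CT replicate 3 was left out, in a fit that called 40.4% of all genes. Mcoln1, a calcium channel of the lysosome, rose from 1349 ± 149.8 to 5188 ± 1306 normalized counts (SD, n = 3; log2 difference 1.92, limma adjusted p = 0.00409). Flcn and Rragc, both part of nutrient signalling at the lysosome, rose by 1.26 and 0.96 (limma adjusted p = 0.0112 and 0.0172). Tfec fell by 2.36 on the log2 scale (limma adjusted p = 0.0149). The MiT factors thus went in different directions, and the remaining calls were named after their values were seen: Tfeb rose from 292.8 ± 68.3 to 1120.3 ± 574 (limma adjusted p = 0.0243), Lamtor1 rose by 1.54 (limma adjusted p = 0.0245), and Mitf fell from 611.5 ± 106 to 220.3 ± 112 (limma adjusted p = 0.0432).

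Of 8 genes listed as cathepsin inhibitors, 1 rose and 1 fell (1 and 2 when BMSC-CT replicate 3 was left out), and the median was 0.23. Cstb, the cytosolic inhibitor cystatin B, rose from 2921 ± 572 to 15674 ± 10469 normalized counts (SD, n = 3; log2 difference 2.23, limma adjusted p = 0.0239). Serpinb9, in that list although known as an inhibitor of granzyme B, fell by 1.68 on the log2 scale (limma adjusted p = 0.0232). Cst3, the secreted cystatin C, had 12153 ± 2371 and 32662.5 ± 23970.3 and was not called (limma adjusted p = 0.131). Of 7 proteases that cathepsins activate or that share their substrates, 0 rose and 2 fell. The counts were 3 and 3 when BMSC-CT replicate 3 was left out, beside 40.4% of all genes called. With all libraries in, the proteases that fell were Plat, the tissue plasminogen activator (log2 difference -4.03, limma adjusted p = 0.000165), and Mmp9, a gelatinase (-3.62, limma adjusted p = 0.00157). Of 9 matrix substrates, 4 rose and 1 fell, among them the collagen chains Col3a1 (2.99, limma adjusted p = 0.00127) and Col1a1 (2.39, limma adjusted p = 0.002) and the matrix protein Sparc (2.06, limma adjusted p = 0.00327), while the proteoglycan Dcn fell by 1.80 (limma adjusted p = 0.00769). The other gene of that list that rose, named after its values were seen, was Tg, the thyroid hormone precursor and a cathepsin substrate that is not a matrix protein (1.95, limma adjusted p = 0.0467).

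Markers of macrophages, which are rich in cathepsins, went in both directions. The 17 macrophage markers summed to 8937 to 10699.8 RPM in BMSC-C and 10619 to 13855 in BMSC-CT, so that the groups overlapped, and up to 2 of them were at 0 in a BMSC-CT library against 0 in BMSC-C. Of these 17 genes, 4 rose, 3 fell and 10 were not called, with a median of -0.79. Csf1r, the receptor for macrophage colony-stimulating factor, rose by 2.12 (limma adjusted p = 0.0015), Cd68, a lysosomal protein, by 1.81 (limma adjusted p = 0.0118), Lyz2, a lysozyme, by 1.41 (limma adjusted p = 0.0224), and Laptm5, a lysosomal membrane protein named after its values were seen, by 1.22 (limma adjusted p = 0.0389). Those that fell were Cd163, a haemoglobin scavenger receptor (log2 difference -3.68, limma adjusted p = 0.00594), Cd74, the invariant chain that Ctss cuts (-2.82, limma adjusted p = 0.0131), and Adgre1, the F4/80 antigen (-1.5, limma adjusted p = 0.0334). Without BMSC-CT replicate 3, 6 of the 17 were called higher and 9 lower, in a fit that called 40.4% of all genes, and 22.1% lower. The list of 10 mesenchymal markers had 2 that rose and 4 that fell, and their sum was 713 to 1333 RPM in BMSC-CT, below the 2914 to 3411 of BMSC-C. The part that these cells have in the cathepsin values was not tested.

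The 7 osteoclast markers in the table summed to 138 to 151 RPM in BMSC-C and 126 to 144 in BMSC-CT, so that the groups overlapped. Acp5, the acid phosphatase of osteoclasts and macrophages, rose by 1.88 (limma adjusted p = 0.0238), and Car2, a carbonic anhydrase, fell from 749.8 ± 104 to 7.05 ± 3.50 normalized counts (SD, n = 3; limma adjusted p = 0.000619). The other 5 were not called, with 1 more called lower when BMSC-CT replicate 3 was left out, and Calcr, Dcstamp and Nfatc1 were not analysed here. Their part in the rise of Ctsk was not tested. Of 5 cartilage markers, 1 rose and 0 fell. Of 4 endothelial markers 0 rose and 1 fell, and of 5 adipocyte markers 1 rose and 1 fell (2 and 1 when BMSC-CT replicate 3 was left out). Of 4 neutrophil and mast cell markers, whose serine proteases Ctsc activates, limma and edgeR called 0, with 2 at an unadjusted p under 0.05, and DESeq2 called 1 higher and 1 lower. Leaving out BMSC-CT replicate 3 gave 0 higher and 2 lower in that list.

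The authors' deposited table of KEGG pathway terms for this comparison listed Lysosome first of 9 terms. In that table, 69 of the 2274 genes that the authors called were in the term, against 129 of 6925 background genes, with an adjusted p of 0.000268. The authors' deposited table split the 69 genes into 64 higher and 5 lower. It counted 9 of the 10 cathepsins among them, all but Ctsf. The authors' deposited table also placed Ctsl and Ctss under Phagosome, and Ctsk and Ctsl under Rheumatoid arthritis.

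The second comparison asked what docetaxel changed in the fibrotic BF cells. Of the 10 cathepsins, limma, edgeR and DESeq2 each called 0, and 1 had an unadjusted limma p under 0.05, as did 6.20% of all genes. Limma called 0.0117% of the 17076 genes tested, that is 2 genes, edgeR also 0.0117%, and DESeq2 0.422%. The median difference of the cathepsins was 0.09 on the log2 scale and that of all genes -0.0044. For 4 members, Ctsa, Ctsb, Ctsf and Ctsl, every BF-D library lay above every BF-C library in normalized counts, as for 7.78% of all genes, and for 0 every one lay below, as for 9.04%. In normalized counts the groups overlapped for the other 6. In RPM the counts were 4 above, 0 below and 6 overlapping, with 9.90% of all genes above and 7.19% below.

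Ctsf had the largest difference and the smallest unadjusted p of the family. It had 5908, 5810.4 and 5742 normalized counts in BF-C and 6499.9, 7447 and 6516 in BF-D. The treated libraries were all above the controls, with BF-D replicate 2 the highest. The difference of 0.23 on the log2 scale (95% confidence interval 0.03 to 0.42) had an unadjusted limma p of 0.0305 and an adjusted p of 0.706. Without BF-D replicate 2 it was 0.16 (limma adjusted p = 0.0584).

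Ctsl had 9223, 9193 and 9055 normalized counts in BF-C and 9765, 12912 and 9427 in BF-D. Replicate 2 stood far above its mates, and without it the log2 difference of 0.21 came to 0.07. The same library was the highest of BF-D for Ctsh, with 16644 normalized counts against 11719 and 11136, and for Ctsk, with 3355 against 2626 and 2328. Ctsh and Ctsk had log2 differences of 0.02 and 0.12, and of -0.16 and -0.02 without replicate 2. With all libraries in and the length trend removed, the log2 differences were 0.14 for Ctsl, -0.04 for Ctsh and 0.04 for Ctsk. The part of the larger ribosomal share of BF-D replicate 2 in these values was not tested.

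For Ctsa and Ctsb the log2 differences were both 0.13, each with a 95% confidence interval from -0.07 to 0.33. Ctsb had 24307, 24256 and 24152 normalized counts in BF-C and 25691, 28614 and 25152 in BF-D, so that the 2 groups were apart by a small step. Ctsd was at 15778, 16158 and 16175 against 15878, 17940.0 and 15361, which overlapped, with an interval from -0.18 to 0.23. Ctsc and Ctsz had differences of 0.05 and 0.03, with intervals from -0.15 to 0.25 and from -0.29 to 0.35. Apart from Ctss, the intervals of the 10 genes spanned at most -0.33 to 0.50. The point estimates of the 5 rises in BMSC-CT began at 1.44 (Ctsh, 95% confidence interval 0.53 to 2.36). For Ctsb, Ctsf, Ctsl and Ctss, not called in BMSC-CT, the intervals of the 2 comparisons overlapped. In BMSC-CT that of Ctsl was 0.18 to 1.48 and that of Ctsf 0.03 to 1.37. The difference between the 2 treatments itself was not tested.

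Ctss was barely detected in BF cells, with 8, 8 and 1 reads in the BF-C libraries and 3, 5 and 5 in the BF-D libraries. The BMSC-C libraries held 2322, 2504 and 3079 reads of it. Its docetaxel difference could not be resolved at this depth (log2 difference 0.02, 95% confidence interval -1.5 to 1.53).

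Of the lists of related genes, limma and edgeR called 0 members in this comparison: 0 of 9 inhibitors, 0 of 15 partners, 0 of 9 MiT factors and regulators, 0 of 7 proteases and 0 of 10 matrix substrates. The same held for the marker lists of macrophages (13 tested), osteoclasts (4), mesenchymal cells (10), cartilage (8), neutrophils and mast cells (6), endothelium (2) and adipocytes (6). At an unadjusted limma p under 0.05 there were 1, 0, 0, 3 and 2 genes in the 5 lists of related genes in that order. The corresponding counts in the marker lists were 6, 0, 4, 1, 0, 0 and 0, beside the 6.20% of all genes at that level. DESeq2 called 3 macrophage markers and 2 of the proteases higher, and 1 matrix, 1 mesenchymal and 1 cartilage gene lower. With BF-D replicate 2 left out, in a fit that called 1.43% of all genes, limma called 2 macrophage markers and 2 of the proteases higher, and 3 matrix, 2 mesenchymal and 1 cartilage gene lower. The sum of the macrophage markers was 58.5 to 65.0 RPM in BF-D, above BF-C (42.2 to 44.1), with up to 2 of the 13 at 0 in a library of either group, and their part in the cathepsin values was not tested.

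The BMSC and BF tables were normalized separately and hold different cells, so that their levels are set side by side in RPM and RPKM with no test. Ctss differed most: the mean was 466-fold higher in BMSC-C than in BF-C, at 152 ± 23.2 against 0.326 ± 0.237 RPKM (SD, n = 3), a ratio that rests on the 1 to 8 reads of the BF-C libraries. Ctsz, at 383.6 ± 94.4 against 31.1 ± 3.22, was 12.3-fold higher in BMSC-C. Ctsd, Ctsl and Ctsb were 3.30-fold, 3.13-fold and 3.01-fold higher there. Ctsc, Ctsa and Ctsf were within 1.52-fold, 1.23-fold and 1.07-fold of each other, again higher in BMSC-C. Ctsh and Ctsk were the members that were higher in BF-C, by 1.90-fold and 1.42-fold. Ctsh accordingly took 15.2% of the cathepsin reads in BF-C and 3.45% in BMSC-C, and Ctsk 2.99% and 0.905%.

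Macrophage markers differed in the same direction as Ctss, Ctsz, Ctsd, Ctsl, Ctsb, Ctsc, Ctsa and Ctsf. Lyz2 had 4066 RPM in BMSC-C and 2.69 in BF-C, Adgre1 had 3145 and 11.8, Cd68 had 274 and 6.14, and Csf1r had 52.4 and 0.951. The osteoclast marker Acp5 had 29.3 and 13.9, while Ctsk was the higher in BF-C, at 105.7 ± 3.91 RPKM against 74.2 ± 6.15 in BMSC-C. The part of macrophages in the levels of the cathepsins was not tested, and cell type, culture and table cannot be told apart in this setting.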

How the data were processed

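RNA was extracted with RNeasy and made into NEBNext Ultra libraries, per the labels' protocols. The submitters' processing notes name Bowtie 0.12.2 and the mouse build mm8, whereas the gene identifiers are those of rat; the rat build is not given in the sources used here, and no coordinates of the deposited tables were used. The deposited tables hold, per the file headers, normalized counts per library (a signal scaled by the authors' size factors, separately for the BMSC and BF tables), gene lengths (other values), and log2 fold changes with p-values from the authors' own test. Their pathway tables hold the authors' gene counts, p-values and terms.

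Every value came out as whole reads (100% within 0.01 of a whole read) after division by the value of 1 read in its library. Identifiers without a symbol held 0.641 to 1.55% of the reads and remained in the totals and tests. Each comparison was fitted with limma 3.58.1 in R 4.3.3 (empirical Bayes with trend) on log2(normalized count + 1), leaving out genes whose mean fell under 1, adjusted by the Benjamini-Hochberg method and called under 0.05; fold changes on this scale understate those of low genes. Alternatives were edgeR 4.0.16 and DESeq2 1.42.0 on recovered reads, other scalings, pseudocounts and filters, library quality weights, removal of a length trend, a replicate block and leaving out each library. The scripts were tested on simulated data. For BMSC-CT against BMSC-C, limma called 0 of 67 genes simulated with a 2-fold change and 16 of 67 with a 4-fold change. For BF-D against BF-C it called 48 of 67 and 66 of 67. False calls in the BMSC simulation were 5 with limma and 60 with DESeq2. That simulation changed far fewer genes than the 3134 called in the data. With fewer changed genes the adjusted threshold is stricter, so its shares called do not carry over to the real fit. A cathepsin not called in the BMSC comparison may still differ. All 10 cathepsins passed the filter in both tables. Genes of other lists were named by the smallest adjusted p, up to 4 per list and comparison, with set markers of macrophages and osteoclasts. The cathepsins, lists and tests were chosen with earlier results of these data known. Intervals cover the spread between libraries.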

Additional observations from a re-analysis of the deposited data

How the results depend on the processing

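For BMSC-CT against BMSC-C, 5 cathepsins and 3134 genes were called. DESeq2 called 9 and 5531, and quality weights 10 and 9217. Leaving out 1 library gave 0 to 9 cathepsins and 744 to 6797 genes, highest without BMSC-CT replicate 3 and lowest without BMSC-C replicate 2. Removing the length trend kept 5 cathepsins called and moved the share higher among called genes from 41.3% to 53.8%, and DESeq2 moved it to 50%. Over all settings of this comparison, none turned the sign of a cathepsin.

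Whether replicate numbers pair the libraries was not settled. Same-numbered libraries had correlated deviations of 0.199, -0.0209 and 0.183 in the BMSC groups and 0.0140, 0.0196 and -0.00285 in the BF groups. Those of different number had -0.225 to 0.0891 in the BMSC groups and -0.0348 to 0.0277 in the BF groups. With the replicate block, 5 cathepsins and 3003 genes were called in the BMSC comparison and 0 and 0 in the BF comparison.

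For BF-D against BF-C, 0 cathepsins were called in every setting run. Of all genes, 2 were called, against 0 with a mean of at least 10, 72 by DESeq2, 147 with quality weights, 11 with the length trend removed, and 0 to 245 when 1 library was left out, the last without BF-D replicate 2. Small differences of uncalled genes changed sign, and the cause was not tested. With quantile normalization Ctsd came to -0.0048, Ctsh to -0.0110 and Ctss to -0.0092. With quality weights Ctsd came to -0.0348, Ctsh to -0.15, Ctsk to -0.0213, Ctss to -0.0265 and Ctsz to -0.0890. With the length trend removed Ctsh was at -0.0383, Ctss at -0.0899 and Ctsz at -0.0522. Ctss was at -0.0695 with a pseudocount of 5, -0.28 by edgeR and -0.29 by DESeq2. Leaving out 1 library gave -0.0382 to 0.0737 for Ctsd, -0.16 to 0.12 for Ctsh, -0.0221 to 0.24 for Ctsk, -0.69 to 0.45 for Ctss and -0.0893 to 0.12 for Ctsz. Ctss gave no value with a mean of at least 10, and its few reads limit its BF values. Without BMSC-CT replicate 3, the mean level in BMSC-CT went from 472 to 408 RPKM for Ctsh and from 44.0 to 54.6 for Ctsc. Without BF-D replicate 2, the mean of Ctsh in BF-D went from 454 to 395 RPKM. RPM in place of RPKM changes each gene by its length alone.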

Other observations

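Of a list of 12 further genes, other cathepsins and the related Napsa, 3 were in the BMSC table. Napsa, an aspartic protease of lung and kidney, had 61.0 to 133 normalized counts in BMSC-C and 135 to 504 in BMSC-CT. Ctse, an aspartic protease of the gut and of immune cells, had 0.813 to 0.867 and 1.81 to 16.9. The BMSC-C values of Ctse are those of 1 read in each library, at the floor of detection. Ctsw, a cathepsin of cytotoxic lymphocytes, was under 10 in every library. Limma and edgeR called 0 of them, with Napsa at an unadjusted limma p under 0.05 (limma adjusted p = 0.123), and DESeq2 called 1 higher. In the BF table Ctsw was tested and not called.

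The genes whose levels followed each cathepsin most closely were ranked by Pearson correlation of log2(RPM + 1) over the 12 libraries, among 8296 genes. The libraries fall into 4 groups and are not independent points, so the values are descriptions. Ctsa was closest to Mcoln1 (0.998), Ctsb to Trpv2 (0.998), Ctsc to Adam17 (0.993), Ctsd to Arrdc1 (0.999), Ctsl to Atf3 (0.996) and Ctsz to Cndp2 (0.998). Ctss was closest to Folr2 (0.999), followed by Cyth4 (0.999). Ctsk was closest to Pdia6 (0.982) and Ctsh to Ssr2 (0.977). Ctsf had the loosest match, with Shisa5 (0.926).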
